A study of Mus musculus with 2 samples.

Results

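Transcripts annotated as targets of nonsense-mediated mRNA decay (NMD) were described in mouse hippocampus. A transcript was a member when the annotation field that closes its deposited name reads nonsense_mediated_decay. This rule took 7186 of 141767 annotated transcripts, from 4576 of 55450 genes, and used no measured value. All 7186 were found in both sets of transcript tables. Of the parent genes, 2987 had 1 member, and the largest number was 18, in Slc4a7, a bicarbonate transporter gene. The label is given by the annotation, from where the stop codon lies in the transcript. Decay itself was not measured.

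The data were total RNA sequencing of 2 libraries from the hippocampus of female B6CASTF1/J mice aged 2 months, first-generation hybrids of the C57BL/6J and CAST/EiJ strains, with 300 ng of RNA each. Both libraries belong to 1 group, with no treatment or genetic change named, so no conditions could be compared and no p-value was computed. They have a tissue record each but 1 donor record in common, so whether they come from different animals is not known, and part of the difference between them may be technical. Each library was quantified by the authors in 2 ways. The table of expected counts is called the first quantification here, and the table of estimated counts the second. Levels are in TPM, transcript abundance scaled to a fixed total per library. The totals of the quantifications cover different RNA, so levels, shares of a library's total and numbers of transcripts at a level are given for each by itself and are not compared between them. Shares within a gene are compared.

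NMD is the surveillance pathway that degrades mRNAs whose translation ends too early. When a ribosome stops upstream of an exon junction complex, the helicase UPF1 is phosphorylated by the kinase SMG1, and SMG5 and SMG6 bring in RNA cleavage and decay. Many splicing factors lower their own output by splicing in a poison exon, or by splicing within the 3′ untranslated region, which makes their mRNA a target of this pathway.

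Stretches of 6 members show how the annotated reading frame comes to end early. For each, the sequence starts with the last 24 bases shared with the most abundant protein_coding transcript of the gene and runs to the stop codon of the member, which is in capitals. The coding transcript is given from the same base on, for the same length, all in lower case. Sequences are from the GENCODE M21 transcripts, and in all 6 pairs the shared bases are read in the same frame. Mnat1 encodes an assembly factor of the kinase complex that activates cyclin-dependent kinases. Mnat1-203 skips 1 exon of 74 bases, and its stop codon ends 40 bases after the departure (mm10 chr12:73168129-73179244, plus strand).
Mnat1-203: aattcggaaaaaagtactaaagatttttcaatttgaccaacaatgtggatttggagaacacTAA
Mnat1-201: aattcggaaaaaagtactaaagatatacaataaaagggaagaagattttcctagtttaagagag
Clk1 encodes a kinase that phosphorylates SR splicing factors. Clk1-210 skips 1 exon of 91 bases, and its stop codon ends 21 bases after the departure (mm10 chr1:58419713-58421106, minus strand).
Clk1-210: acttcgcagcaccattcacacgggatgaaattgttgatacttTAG
Clk1-201: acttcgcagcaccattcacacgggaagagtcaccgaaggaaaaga
Srsf9 encodes an SR splicing factor. Srsf9-205 enters an exon of 358 bases that lies within an intron of Srsf9-201, and its stop codon ends 82 bases in (mm10 chr5:115327476-115328428, plus strand).
Srsf9-205: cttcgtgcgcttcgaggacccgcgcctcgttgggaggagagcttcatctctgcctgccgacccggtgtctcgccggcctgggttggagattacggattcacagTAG
Srsf9-201: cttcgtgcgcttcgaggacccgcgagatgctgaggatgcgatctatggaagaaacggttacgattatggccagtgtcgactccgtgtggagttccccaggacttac
Syt16 encodes a member of the synaptotagmin family of membrane trafficking proteins. Syt16-201 enters an exon of 821 bases within an intron of Syt16-203, and its stop codon ends 14 bases in (mm10 chr12:74129528-74162069, plus strand).
Syt16-201: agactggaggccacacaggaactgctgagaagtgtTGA
Syt16-203: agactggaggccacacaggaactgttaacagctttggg
Smg5 encodes a factor of the NMD pathway itself. Smg5-202 uses a splice acceptor 31 bases upstream of that of Smg5-201, and the last base of its stop codon is the first base of the exon so extended (mm10 chr3:88347573-88349111, plus strand).
Smg5-202: agccatgtattgctacttgcgcTGA
Smg5-201: agccatgtattgctacttgcgctgc
Rpl12 encodes a protein of the large ribosomal subunit. In Rpl12-201 an exon runs on for 121 bases past the splice site of Rpl12-203, and its stop codon ends 218 bases after the departure, in bases that Rpl12-203 holds in another frame (mm10 chr2:32961816-32962596, plus strand).
Rpl12-201: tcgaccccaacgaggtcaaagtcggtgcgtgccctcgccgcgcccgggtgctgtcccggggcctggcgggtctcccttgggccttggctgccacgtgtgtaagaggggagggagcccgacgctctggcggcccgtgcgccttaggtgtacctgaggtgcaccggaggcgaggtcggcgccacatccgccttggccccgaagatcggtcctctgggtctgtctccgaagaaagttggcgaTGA
Rpl12-203: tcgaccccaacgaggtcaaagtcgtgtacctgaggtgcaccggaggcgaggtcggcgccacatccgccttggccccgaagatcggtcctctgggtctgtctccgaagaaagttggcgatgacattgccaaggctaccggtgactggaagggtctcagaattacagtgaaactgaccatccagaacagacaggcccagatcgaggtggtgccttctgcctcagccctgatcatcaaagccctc

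The position of the stop codon separated the members from the other transcripts of their genes, as the label requires. The median distance from the stop codon to the last exon junction was 334 bases in members, with quartiles of 160 and 742 bases. In the 16128 protein_coding transcripts of the same genes that have more than 1 exon the median was -110 bases, a stop after the last junction. A distance of more than 50 bases, the usual rule for NMD targets, was found in 7147 members (99.5%) and in 0.763% of these coding transcripts. A median of 3 junctions followed the stop codon of a member. Members were shorter than the coding transcripts, with a median spliced length of 1255 against 1838 bases. The stop codon lay in bases that a coding transcript of the gene also holds in 4249 members, in bases that none holds in 2335, and was the stop codon of a coding transcript in 505. In 95 members the gene had no coding transcript, and 2 members had no annotated stop codon. The start of the reading frame was not found in 2074 members, and 145 were readthrough transcripts that join neighbouring genes.

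**Figure D1:**
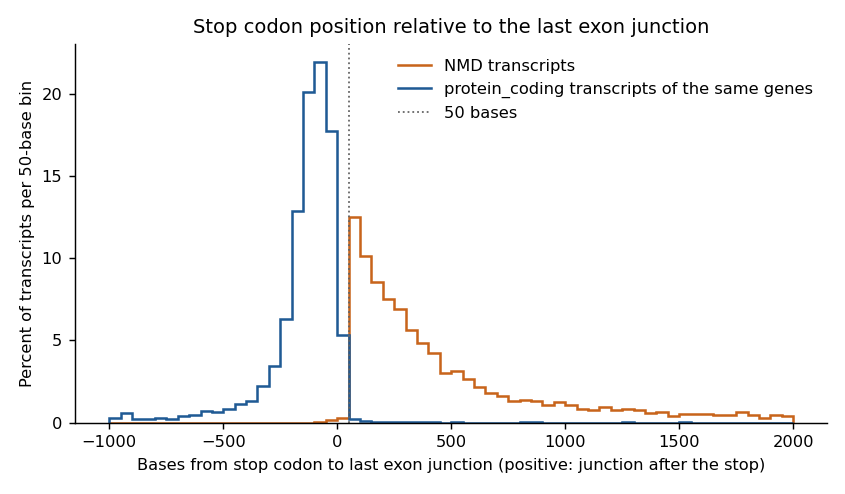
Percent of transcripts per 50-base bin (vertical axis) by bases from the stop codon to the last exon junction (horizontal axis, positive where the junction follows the stop), for 7186 members and 16128 protein_coding transcripts of the same genes with more than 1 exon. Nearly all members lie to the right of the dotted line at 50 bases and nearly all coding transcripts to its left, with 99.5% and 0.763% beyond it. Distances beyond the axis limits are not drawn.

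Depth was alike in both libraries, with 29490900 and 30691916 expected counts on annotated transcripts. Neuronal markers were high, with Snap25 at 851 TPM and the glutamatergic marker Slc17a7 at 533 TPM on average in the first quantification. The granule cell markers Prox1, Calb1 and Dsp were all higher in replicate 2. They were at 36.05, 60.2 and 4.37 TPM in replicate 1 and at 43.6, 68.7 and 5.74 TPM in replicate 2. Markers of other tissues were low, with Alb of liver at 0.035 TPM, Gabra6 and Pcp2 of cerebellum at 0.175 and 1.06 TPM, and Acta1 of muscle at 2.52 TPM. The choroid plexus marker Ttr was at 121 TPM in replicate 1 and 65.7 TPM in replicate 2, and Kl, also of choroid plexus, at 4.51 and 4.09 TPM. Whether these differences bear on any value below was not tested.

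Members made up a small part of the hippocampal transcriptome. In the first quantification they held 1.127% and 1.135% of all TPM in replicates 1 and 2, or 1.13 ± 0.00570% (SD, n = 2), and in the second 2.606% and 2.614%. Of read counts, members held 1.56 ± 0.0110% in the first and 1.98 ± 0.0233% in the second. In the first quantification, protein_coding transcripts held 36.4% of TPM, retained_intron transcripts 3.88% and processed_transcript entries 2.40%. In the second these classes held 63.2%, 7.67% and 5.38%. These are averages over all cells of the tissue, in which fewer cells with a transcript and less of it per cell cannot be told apart.

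Most members were at low levels. At 1 TPM or more in both libraries were 1464 members (20.4%) in the first quantification, beside 25.3% of all annotated transcripts, and 2484 members (34.6%) in the second, beside 32.7%. Both quantifications placed 1213 members (16.9%) at that level, beside 21.5% of all transcripts and 31.6% of protein_coding ones. At 10 TPM or more in all 4 tables were 160 members and at 100 TPM or more 3, among them Ppia-201 and Atp2a2-203. Both libraries of both quantifications listed 1476 members (20.5%) at 0, beside 30.9% of all transcripts. A further 1127 were at 0 in both libraries of the first only and 543 of the second only. The 13 members on the Y chromosome reached at most 0.700 TPM and 23.8 counts in these female mice. The authors' TPM interval was wider for members than for coding transcripts of the same level. Between 1 and 10 TPM its median width was 113% of the TPM in 1557 members and 72.7% in 15868 protein_coding transcripts.

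The most abundant members came from genes of folding, energy metabolism, translation and ion transport. Ppia-201, of the gene for the folding enzyme cyclophilin A, led with 532 and 524 TPM in the first quantification and 654 and 639 TPM in the second. It has 29 words, stretches of 31 bases, that no other transcript of Ppia holds, and it took 83.3 ± 1.72% of the TPM of its gene in the first quantification and 44.8 ± 0.595% in the second. In the first, the protein_coding Ppia-202 was at 4.36 and 4.53 TPM. In the second it was at 382 and 361 TPM, with the retained_intron Ppia-204 at 403 and 432 TPM. The libraries matched closely in each quantification, and the quantifications divided the same gene in different ways.

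Atp2a2-203, of the gene for the calcium pump SERCA2 of the endoplasmic reticulum, was at 148 and 146 TPM in the first quantification. It shares its stop codon with a coding transcript, has 1258 bases from there to the last junction and 478 words of its own. It took 63.5 ± 0.328% of its gene in the first quantification and 45.1 ± 0.161% in the second. Prdx6-208, of a peroxiredoxin gene, was at 71.3 and 76.9 TPM and took 58.6 ± 1.86% and 50.4 ± 0.904%. Hnrnpu-206, of a nuclear matrix RNA-binding protein, was at 73.2 and 70.0 TPM and took 41.7 ± 1.22% and 39.1 ± 2.51%. Ddx5-208, of an RNA helicase, was at 67.7 and 82.8 TPM and took 23.7 ± 2.38% and 18.4 ± 2.35%. Hnrnpu-206 is tagged as a readthrough transcript. The share of the gene was lower in the second quantification for all 4, by the most for Atp2a2-203 and by the least for Hnrnpu-206.

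In others of the 10 most abundant members the quantifications gave more distant shares. Eif4a2-210, of a translation initiation helicase, was at 152 and 154 TPM in the first quantification, where it took 41.3 ± 0.142% of its gene, beside 6.33 ± 1.25% in the second. It has no 31-base word of its own. Ndufa3-204, of a subunit of respiratory complex I, was at 189 and 193 TPM and took 92.1 ± 0.112% and 19.7 ± 2.22%. Ndufa3-204 has no word of its own either. Rpsa-206 took 79.3 ± 0.0261% and 33.4 ± 0.0978% of the gene for a small-subunit ribosomal protein. Ppp1cb-205, of a catalytic subunit of protein phosphatase 1, was at 72.6 and 75.7 TPM and took 46.8 ± 0.584% and 38.3 ± 0.0515%, a smaller difference than in those 3. Ppia, Rpsa and Rpl12 have near-identical processed copies elsewhere in the genome, which can make read assignment uncertain. Whether this bears on their shares was not tested.

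Across genes, the NMD share was usually a few percent. It was taken as the summed TPM of the members of a gene over that of all its transcripts, in the 3014 genes that reached 5 TPM in both libraries of both quantifications. The median share was 4.44% and 4.43% in replicates 1 and 2 of the first quantification and 7.22% and 7.43% in the second. Of the means over libraries, the middle 50% of genes lay between 0.816% and 14.6% in the first and between 1.68% and 18.8% in the second. The share reached 10% in both quantifications in 838 genes (27.8%), 25% in 301 (9.99%) and 50% in 62 (2.06%). It stayed under 1% in both in 400 genes. A member was the leading transcript of its gene in all 4 tables in 103 genes (3.42%), 99 of which have a coding transcript. Summed over the 3014 genes, members held 9.60 ± 0.0572% of TPM in the first quantification, coding transcripts 71.7 ± 0.40%, retained_intron transcripts 14.2 ± 0.238% and processed_transcript entries 4.52 ± 0.104%. The corresponding values in the second were 11.9 ± 0.0411%, 67.7 ± 0.394%, 14.4 ± 0.245% and 5.95 ± 0.104%.

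Genes with more members gave more of their RNA to them. Among genes with 1, 2 and 3 or more members, the median share in the first quantification was 2.81%, 6.18% and 13.6%, and in the second 4.59%, 10% and 18.9%. The share of genes past 10% in both was 20.2%, 30.4% and 55.4%, beside 27.8% of all. Genes at higher levels gave less. From 5 to 20 TPM the median was 6.24%, from 20 to 100 TPM 3.57% and above that 1.34% in the first quantification. These are descriptions across genes, which are not replicates.

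The 2 quantifications gave related but unequal shares for a gene. Pearson's r was 0.744 and Spearman's rho 0.686 over the 3014 genes, which share reads, annotation and length between the axes. Between libraries of 1 quantification, r was 0.942 in the first and 0.936 in the second. The median absolute difference was 3.65 percentage points between quantifications and 1.59 and 1.90 points between libraries. The second gave the higher share in 1824 genes and the first in 976. In 231 genes they lay more than 20 points apart.

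**Figure D2:**
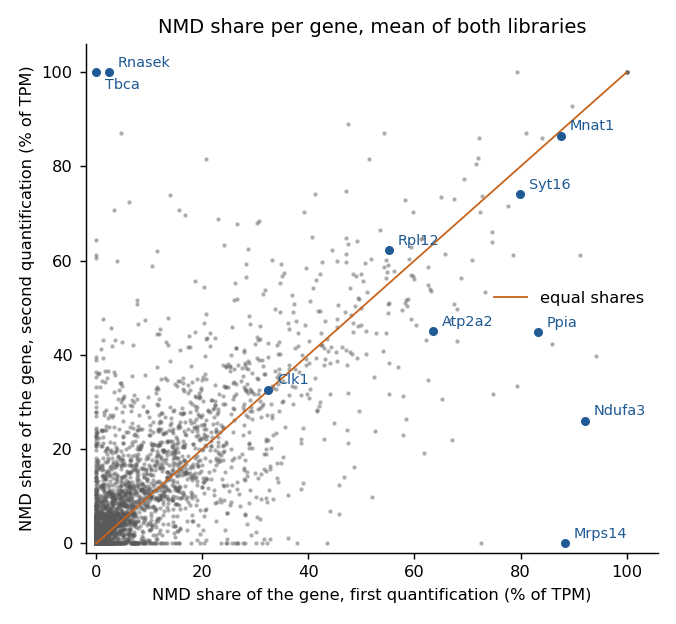
NMD share of each of 3014 genes (percent of TPM, mean of both libraries) in the first quantification (horizontal axis) and the second (vertical axis), 1 point per gene, with the line of equal shares. Genes such as Mnat1 and Clk1 lie near the line, while Tbca, Rnasek, Mrps14 and Ndufa3 lie near the edges.

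The 10 genes with the highest share by the lower of both quantifications included 5 readthrough loci. Gm20683, Gm20605, Gm20716 and Gm49325 hold 1 member each, with no protein_coding or other transcript listed. Their share of 100% in all 4 tables therefore follows from the annotation and not from the reads. They overlap the gene pairs Rhbdl1 and Rhot2, Lrch4 and Sap25, Adnp and Dpm1, and Sumo3 and Ube2g2. Their levels were low, from 7.10 TPM for Gm20605 in replicate 1 to 13.3 TPM for Gm20683 in replicate 2 of the first quantification. Gm28036, which overlaps Cpne1, Nfs1 and Rbm12, has 7 members and 1 coding transcript, and had shares of 73.4% and 85.1% in the first quantification and 100% in both libraries of the second.

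The other 5 are single genes with a coding transcript. Mnat1 had an NMD share of 85.3% and 89.8% in replicates 1 and 2 of the first quantification and of 85.0% and 88.0% in the second. Mnat1-203, the exon-skipping transcript printed above, was at 8.71 and 8.97 TPM, and the coding Mnat1-201 at 1.03 and 0.56 TPM. All 4 shares of Mnat1 lay within 5 points. Mmaa, which acts in mitochondrial vitamin B12 metabolism, had shares of 82.0% and 86.0%, then 85.4% and 86.8%. Mmaa-202 has 401 words of its own and was at 7.97 and 9.56 TPM, beside 1.75 and 1.55 TPM for the coding Mmaa-201. Mnat1 and Mmaa were thus led by 1 member in every table.

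Adhfe1, a mitochondrial transhydrogenase gene, had shares of 86.7% and 92.6% in the first quantification and of 92.9% and 92.7% in the second, split over 4 members. Adhfe1-202, at 459 bases the shortest of them, was listed at 0 in both libraries of the first quantification and at 7.35 and 8.35 TPM in the second. Pcnp, a nuclear protein gene, had shares of 79.3% and 82.7%, then 96.7% and 77.4%, and its coding Pcnp-202 was at 0.163 and 27.7 TPM in the second quantification. The second quantification of Pcnp thus moved between libraries more than the first. Syt16 had shares of 81.8% and 78.0%, then 68.2% and 80.1%. Syt16-201, with its own exon of 821 bases, was at 16.8 and 17.3 TPM in the first quantification and at 26.3 and 27.1 TPM in the second, while the coding Syt16-203 was at 1.54 and 1.51, then 2.50 and 2.53 TPM.

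**Figure D3:**
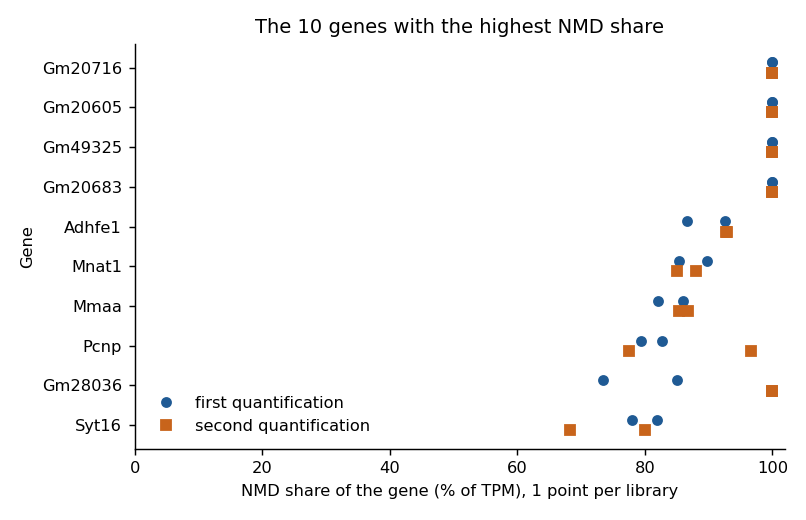
NMD share (percent of TPM, horizontal axis) of the 10 genes with the highest share (vertical axis), 1 point per library, circles for the first quantification and squares for the second. The 4 genes at 100% in every library have no transcript listed beside their member, so the annotation fixes their share. Pcnp shows the widest gap between libraries, from 77.4% to 96.7% in the second quantification.

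Of the 62 genes at 50% or more in both quantifications, 58 have a coding transcript, and 4 are the loci whose share the annotation fixes. In 26 of these the leading member has no exon base outside those of the gene's coding transcripts. In 36 it has at most 30 words of its own, no more than about 1 junction gives. In 7 it has more than 200 bases in the last exon that no coding transcript holds. The stop codon lay in bases held by a coding transcript in 34, in bases held by none in 18, and was shared with a coding transcript in 6. Readthrough transcripts led 6 of the 62 genes. Over all 7186 members, 906 had no word of their own and 2958 had 1 to 30. Their stop codon lay in bases held by a coding transcript in 4249, in bases held by none in 2335, and was shared in 505. Whether the leading members differ from the rest was not tested.

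SR and SR-like splicing factors were set apart first, since SR genes are known for poison exons. Beside Srsf genes the list holds the Clk kinase genes and SR-like genes such as Son, Srrm2 and Luc7l. Of 27 genes in the list, 24 had members and all 24 reached the minimum. The share reached 10% in both quantifications in 8 (33.3%), beside 27.8% of all genes, and the median was 6.83% in the first quantification and 13.1% in the second, beside 4.59% and 7.55%. Srsf9 had the highest share, 60.9% and 49.5% in replicates 1 and 2 of the first quantification and 56.8% and 45.3% in the second. Srsf9-205, with the exon printed above and 29 words of its own, was at 22.3 and 19.7 TPM, and the coding Srsf9-201 at 10.8 and 9.84 TPM. Replicate 1 was the higher of the libraries in both quantifications. Clk1 had shares of 33.9% and 31%, then 34.8% and 30.5%. Its exon-skipping Clk1-210, which has no word of its own, was at 19.5 and 18.0 TPM, above the coding Clk1-201 at 3.95 and 2.69 TPM. Retained_intron transcripts held much of the rest, led by Clk1-204 at 9.40 and 10.7 TPM.

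Srsf6, a further SR protein gene, had shares of 28.3% and 27.9%, then 32.8% and 32.9%. Within each quantification its libraries lay closer together than those of Srsf9 and Clk1. Srsf6-201 was at 12.7 and 12.4 TPM, below the coding Srsf6-203 at 20 and 19.6 TPM. The other 5 past 10% were Tra2a, Tra2b, Srsf3, Srsf1 and Srsf4. Tra2a and Tra2b, which bind exonic enhancers, had mean shares of 21.4 ± 2.82% and 21.7 ± 9.20% in the first quantification and 44.6 ± 0.933% and 20.7 ± 3.82% in the second. Srsf3 had 19.4 ± 1.0% and 31 ± 0.636%, Srsf1 15.6 ± 1.80% and 16.9 ± 1.21%, and Srsf4 15.6 ± 0.501% and 15.1 ± 0.438%. Rsrc2 was among those that differed most, at 7.95 ± 6.45% and 46.6 ± 2.66%. The means of Srsf2 and Srsf5 were under 2% in both.

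Among 56 genes of hnRNP and other RNA-binding proteins, 33 had members and all 33 reached the minimum. The share reached 10% in both quantifications in 12 (36.4%), beside 27.8% of all genes, with medians of 9.65% and 9.67%. Hnrnpu had shares of 55.9% and 52.4%, then 42.7% and 39.1%. Hnrnpa1, whose product shuttles mRNA out of the nucleus and whose gene has near-identical copies, had 40.4% and 45.5%, then 36.5% and 39.2%. Tardbp, the gene of the RNA-binding protein TDP-43, had 34.6% and 29.8%, then 35% and 29.1%, from 10 members and 15 coding transcripts. All 4 values of Tardbp lay within 6 points. Its leading member Tardbp-228 was at 19.0 and 16.9 TPM in the first quantification and has 26 words of its own. Hnrnpdl had 22.0 ± 0.0769% and 25.4 ± 0.059%, Khdrbs3 25.9 ± 1.4% and 26.1 ± 2.81%, and Hnrnpll 21.1 ± 0.561% and 28.1 ± 1.69%. The remaining genes past 10% were Khdrbs1, Hnrnpd, Syncrip, Celf2, Rbm39 and Tial1. Snrpa1 and Celf4 had members in the first quantification, at 32.2 ± 5.81% and 5.55 ± 0.321%, that were listed at 0 in the second.

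The NMD pathway's own genes were all expressed. Of 21 genes, the lowest in the first quantification was Dhx34 at 5.04 ± 0.318 TPM. Upf1, the central helicase, was at 27.1 ± 0.389 TPM, the kinase gene Smg1 at 34.6 ± 1.44 TPM and Eif4a3, of the exon junction complex, at 36.0 ± 0.785 TPM. Members were annotated in 5 of the 21, and 2 of these 5 (40%), beside 27.8% of all genes, had a share of 10% or more in both quantifications. Gspt2, of a translation release factor, had shares of 18.5% and 21.2%, then 20.8% and 24.1%. Magohb, of the exon junction complex, had 30.7% and 3.74%, then 41.0% and 26.0%, from 12.1 and 1.88 counts of its leading member Magohb-202 in the first quantification, and without replicate 1 it was under 10%. Smg5-202, printed above, took 4.62% and 5.23%, then 5.91% and 7.03% of Smg5. The member of Smg1 was listed at 0 in both libraries of the first quantification and had 13.8% and 12.6% in the second, and that of Smg6 was likewise at 0 in the first and had 1.22 ± 0.652% in the second.

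Among 20 genes of the stress response, polyamine synthesis and upstream reading frames, 4 had members and reached the minimum. Of all 21951 protein-coding genes, 4574 had members. Of the 4, 0 had 10% in both, beside 27.8% of all genes. Odc1, the rate-limiting enzyme of polyamine synthesis, had shares of 7.90% and 5.0%, then 6.42% and 6.46%. Azin1, an antizyme inhibitor gene, had 5.49% and 6.97%, then 11.7% and 12%, and the polyamine-degrading Sat1 had 1.68% and 2.80%, then 3.83% and 3.43%. Ifrd1 was listed at 0 in the first quantification and had 3.82 ± 1.21% in the second.

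In the list of synaptic and neuronal genes, which also holds glial genes, most shares were low. Of 55 genes, 17 had members and reached the minimum, and 2 (11.8%) had 10% or more in both quantifications, beside 27.8% of all genes. The medians were 1.93% and 3.49%. Among all genes with members they were 3.57% and 6.16% at 20 to 100 TPM in the first quantification, and 1.34% and 3.67% at higher levels. Whether the list differs from genes of its level was not tested. Nrxn3, of a presynaptic adhesion protein and 1 of these 2, had shares of 19.3% and 16.4%, then 17.8% and 15.2%. Dlg1, of a synaptic scaffold protein, had 12.7% and 7.34%, then 9.41% and 6.23%, with replicate 1 higher in both. Dlg4, of the scaffold protein PSD-95, was at 0.279 ± 0.0122% and 0.330 ± 0.0982%, and the member of the myelin gene Mbp was listed at 0 in all 4 tables.

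Ribosomal protein genes were mostly low with a few high ones. Of 85, 19 had members and reached the minimum, 3 (15.8%) had 10% or more in both, beside 27.8% of all genes, and the medians were 2.23% and 0.715%. Rpl12 had shares of 52.7% and 57.6%, then 62.4% and 61.9%. Rpl12-201 was at 24.3 and 28.2 TPM in the first quantification and at 71.6 and 68.3 TPM in the second, and the coding Rpl12-203 at 2.40 and 2.94, then 30 and 25.8 TPM. Rpsa, also past 10%, had 79.3 ± 0.0261% and 33.4 ± 0.0978%. Rpl14 had 26.6 ± 2.97% in the first quantification and was listed at 0 in the second, while Rps18 was listed at 0 in the first and had 28.0 ± 2.15% in the second.

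**Figure D4:**
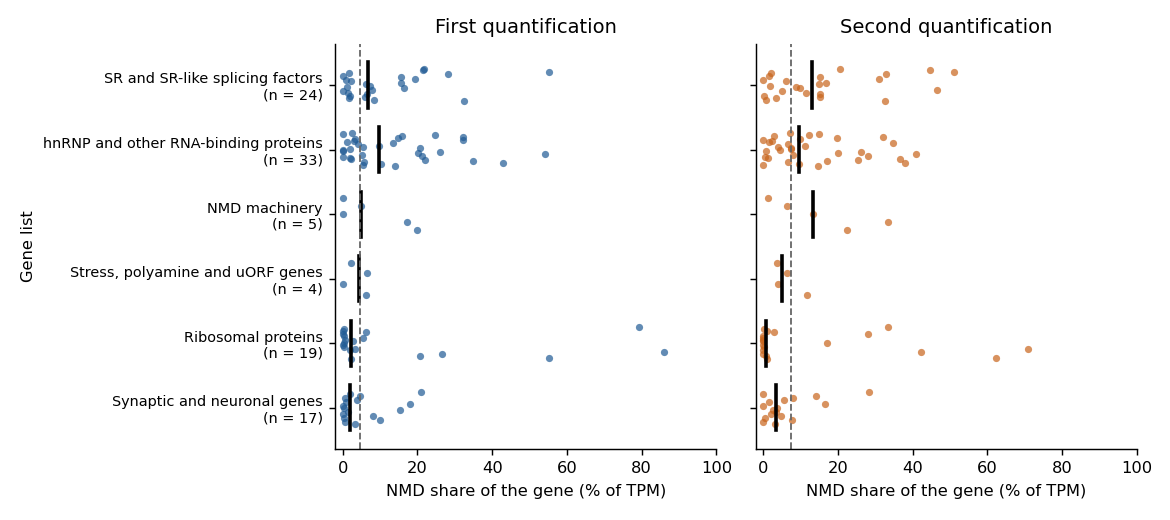
NMD share (percent of TPM, mean of both libraries, horizontal axis) of each gene with members in 6 gene lists (vertical axis, n genes each), in the first quantification (left) and the second (right). Black bars are list medians and the dashed line is the median of all 3014 genes, 4.59% and 7.55%. A share of 10% in both quantifications was reached by 33.3% of the 24 splicing factor genes and 36.4% of the 33 RNA-binding genes. It was reached by 11.8% of the 17 synaptic genes, beside 27.8% of all genes.

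Some genes had widely different shares in the 2 quantifications, and in those named here the libraries of each differed less than the quantifications. Tbca-203, of a tubulin folding cofactor, was listed at 0 in both libraries of the first and took 100% of its gene in both of the second, at 91.2 and 75.6 TPM. Rnasek-202 took 2.70% and 2.07% of the gene for an endoribonuclease in the first and 100% in both libraries of the second. Lgals1-202, of galectin-1, took 0% and 9.26%, then 91.2% and 83.1%. Rpl27a, whose gene has near-identical copies, had 3.35 ± 2.56% in the first and 70.8 ± 0.469% in the second. Pdrg1, of a prefoldin-like protein, had 6.2 ± 0.529% and 72.4 ± 3.62%. In the other direction, Mrps14-201, of a mitochondrial ribosomal protein, took 87.8% and 88.9% in the first, and in the second was listed at 0 in replicate 1 and at under 1 count in replicate 2. Gm1673-204 took 67.9% and 77.1% and was listed at 0 in the second. The gene share of Ndufa3 was 92.2% and 92.0%, then 34.0% and 18.1%. Ndufa3 and Rpsa, whose leading members are described above, and Bak1, of a cell death effector, with 94.3 ± 6.59% and 39.8 ± 2.51%, complete the 5 with the largest excess in the first. The leading members of these 8 genes other than Ndufa3 and Rpsa have 434 to 1974 bases.

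How much sequence a member has for itself went with how alike its values were. Members were grouped by the number of 31-base words that no other transcript of their gene holds, and the share of the gene was taken for each of the 4956 members in genes at the minimum. Spearman's rho between quantifications was 0.568 in 664 members with no word of their own, 0.570 with 1 to 30 words (n = 2148), 0.575 with 31 to 200 (n = 1445), 0.669 with 201 to 1000 (n = 520) and 0.915 above 1000 (n = 179). The median share of a member in the same order was 1.21%, 1.14%, 2.17%, 4.42% and 4.92% in the first quantification and 1.83%, 1.84%, 4.54%, 7.35% and 6.34% in the second. Of all 7186 members, 906 had no word of their own and 2958 had 1 to 30. A share of 25% or more in both quantifications was found in 206 members (4.16%). Among members with over 1000 last-exon bases that no coding transcript of the gene holds, it was found in 17 of 124 (13.7%), and rho was 0.934. Each rho describes members that share reads and annotation.

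Length went the same way. Members of up to 500 bases had a median share of 0.890% in the first quantification and 0% in the second, rho of 0.289, and 7.20% of them reached 1 TPM in all 4 tables. Members over 4000 bases had medians of 4.95% and 6.00%, rho of 0.754, and 41.7% reached 1 TPM in all 4. Members with a complete start had medians of 2.42% and 4.15%, and those whose start was not found 1.18% and 2.22%. With the best transcript support level of the annotation the medians were 4.43% and 5.70%, and with the lowest, level 5, they were 1.08% and 2.50%. By the class of the stop codon, medians were 1.57% and 2.75% where a coding transcript holds the bases of the stop, 2.32% and 4.69% where none does, and 3.18% and 3.48% where the stop codon is shared.

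**Figure D5:**
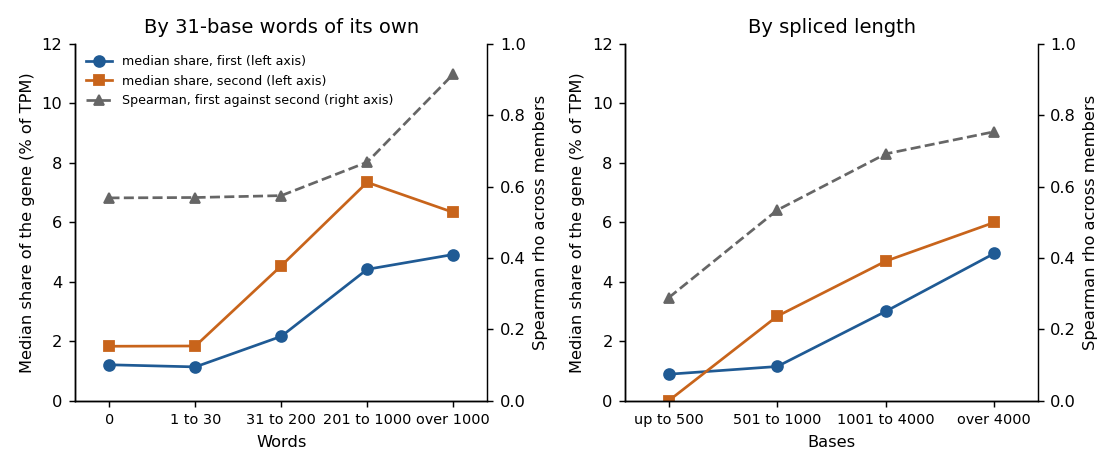
Median share of a member in its gene (percent of TPM, left axes, circles for the first quantification, squares for the second) and Spearman's rho between quantifications (right axes, triangles), by words of its own (left panel) and by spliced length (right panel). Spearman's correlation was 0.915 in members with over 1000 words of their own and 0.289 in members of up to 500 bases.

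Between the libraries, members were compared by counts, with 0.5 added and scaled to library totals. Apart here means that the counts differ by 1 or more on the log2 scale, judged only where they average 50 or more. In the first quantification 161 of 1357 members (11.9%) were apart, beside 6.01% of all transcripts. In the second 195 of 1760 (11.1%) were, beside 6.24%. Apart was rarer at higher counts, in members and coding transcripts alike. In the first quantification, from 50 to 200 counts, 16.4% of members and 14.5% of protein_coding transcripts were apart, from 200 to 1000 counts 3.04% and 3.26%, and above 1000 counts 0% of 83 members and 0.246%. Of the 161, 87 were higher in replicate 2 (6.41% of members, beside 3.22% of all transcripts) and 74 in replicate 1. Of the 195, 112 were higher in replicate 2 (6.36%, beside 3.27%). Both quantifications called 42 members apart in the same direction, 26.1% of the 161 and 21.5% of the 195. Over all transcripts the corresponding shares were 20.5% and 18.2%. In the first quantification 26 of the 1357 members (1.92%) were listed at 0 in 1 of the libraries, beside 1.13% of all transcripts.

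The members furthest apart were of that kind, listed at 0 in 1 library of the first quantification. They are given with the levels of their genes and with the authors' TPM intervals, which allow for uncertain read assignment. Fgfr2-226, of a fibroblast growth factor receptor, had 0 and 268 counts in replicates 1 and 2, and under 1 and 251 counts in the second quantification. Its interval reached up to 1.11 TPM in replicate 1 and began at 1.16 TPM in replicate 2, so that the intervals nearly touched. Its gene was at 23.4 and 19.4 TPM. Gga3-212, of an endosomal clathrin adaptor, had 0 and 212 counts, then under 1 and 209, with the gene at 32.3 and 26.5 TPM. Its intervals overlapped, up to 1.96 TPM in replicate 1 and from 0.155 TPM in replicate 2. Lrig1-207, of a receptor regulator, had 0 and 285 counts, then under 1 and 236, with the gene at 9.70 and 10.7 TPM. Its intervals also overlapped, up to 1.13 TPM and from 0.467 TPM. These 3 have 18 to 29 words of their own, and in both quantifications nearly all their counts were in replicate 2.

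The 3 in the other direction were less alike between quantifications. Bclaf1-208 had 241 and 0 counts in the first and 2.98 and under 1 counts in the second. Its interval began at 1.24 TPM in replicate 1 and reached up to 2.52 TPM in replicate 2. Ccpg1-203 had 233 and 0 counts, then 38.9 and 0, with intervals from 0.642 TPM and up to 3.46 TPM. Zfp287-204 had 203 and 0 counts, then 205 and 134. Its interval in replicate 1 ran from 3.38e-05 to 2.83 TPM, with the level of 2.84 TPM just above it, and in replicate 2 it reached up to 1.73 TPM. The intervals of all 3 overlapped between the libraries, so no fold change is given for these members. Leaving out replicate 1 takes the share of Zfp287 from 20.3% to 0% in the first quantification.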

How the data were processed

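Total RNA from mouse hippocampus was measured in 2 libraries of 1 group. Per the labels the assembly is mm10, and the accompanying notes name annotation M21. Which software made the tables, and with which settings, is not stated in the sources. Per the file headers, the first deposited table of each library has RSEM's columns, among them an expected count and TPM per transcript. The second has kallisto's columns, with estimated counts and TPM. The first also holds a deposited score at either end of an interval around each TPM. Gene tables in the files differed from sums over transcripts by at most 0.04 TPM in the 3014 genes analysed.

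Transcripts were joined by identifier. All 141767 annotated entries of the second tables matched, and 97 entries without annotation were left out. Exons, coding regions, tags and support levels came from the GENCODE M21 annotation, and words and sequences from its transcripts. Shares were taken per library and averaged. Values are means ± SD (n = 2). The smallest unit compared was the library, and with 1 group no test was made. The members, the gene lists and the rules were chosen with earlier results of these data known. Named were the 10 members with the highest TPM in the first quantification (effective length of 200 bases or more, 1 TPM in all 4 tables), the 10 genes with the highest share by the lower quantification and the 3 highest of each list, the 5 genes with the largest difference between quantifications in each direction, and the 3 members furthest apart between libraries in each direction at 50 counts or more. Other genes of a list were named after their values were seen. In simulated counts, 100% of 200 transcripts shifted by 1.5 on the log2 scale were called apart, beside 0.007% of 30508 not shifted. The NMD share came back with a median error of 0.395 percentage points in 3428 genes. These counts varied only by random sampling around the measured counts. Uncertain read assignment was not simulated, so these values check the calculation and do not measure the error in the data. Python 3.11.15, numpy 2.4.6, pandas 2.3.3 and edgeR 4.0.16 (for TMM factors only) were used. Alternatives were other minimums, thresholds, measures, denominators, pseudocounts and scaling, the other quantification and each replicate left out. Some members of the abundance rule and the lists are not reported here by name.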

Additional observations from a re-analysis of the deposited data

How the results depend on the processing

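No paired analysis was possible because there is 1 group. The share of TPM on members was 1.13%. It came to 2.61% in the second quantification, 1.56% of expected counts, 2.78% among transcripts of nuclear protein-coding genes and 0.991% from members of 1 TPM or more, and to 1.127 to 1.135% with each replicate left out. Members detected, 1464, were 2484 in the second quantification, 2056 and 904 at 0.5 and 2 TPM, 2263 at 10 expected counts and 1796 to 1821 with a replicate left out. Shares over all transcripts are not given for these other limits, so the numbers do not set members apart from other transcripts. The median gene share of 4.59% came to 4.84% and 3.26% at gene minimums of 1 and 20 TPM, 2.54% in expected counts, 6.0% among coding and NMD transcripts only, 4.49% for members with a complete coding region, 7.55% in the second quantification and 4.43 to 4.44% with a replicate left out. Genes at 10% or more fell from 838 to 360 at the minimum of 20 TPM, which tests fewer genes. Those at 50% or more, 62, were 98 and 25 at minimums of 1 and 20 TPM and 144 among coding and NMD transcripts only. The correlation between quantifications, 0.744, was 0.773, 0.709, 0.789, 0.751 and 0.741 at minimums of 1 and 20 TPM, in counts, among coding and NMD transcripts and for complete members, and 0.733 to 0.734 with a replicate left out. Members apart between libraries, 161 of 1357, were 446 and 11 at means of 20 and 200 counts. The lower minimum tests more members and the higher fewer, and shares over all transcripts are not given here, so these numbers describe the settings only. Of the lists, genes at 10% or more among NMD machinery were 2, then 0 at the minimum of 20 TPM, 1 for complete members and 1 to 2 with a replicate left out. Splicing factors went from 8 to 5 and synaptic genes from 2 to 1 for complete members, and the stress list from 0 to 1 in counts. The cause was not tested. Of 49 named gene shares, 30 moved by more than 1 SD in the second quantification, 25 in counts and 20 among coding and NMD transcripts only, and 0 with each replicate left out, which 2 libraries cannot show otherwise, since 1 of 2 values always lies within 1 SD of their mean. Depth limits members under 50 counts, which were not compared between libraries.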

Other observations

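Several genes outside the lists also gave most of their RNA to members in both quantifications. They were chosen after their values were seen. Mobp, a gene of compact myelin in oligodendrocytes, had NMD shares of 59.9 ± 2.58% and 56.1 ± 1.22%, at a gene level of 112 TPM in the first quantification. Lgi1, a secreted neuronal protein linked to epilepsy, had 58.7 ± 2.03% and 51.9 ± 1.17%, and Tspan5, a tetraspanin, had 70.8 ± 2.3% and 60.1 ± 1.4%. Slco1c1, a thyroid hormone transporter of brain endothelium and astrocytes, had 65.0 ± 0.511% and 73.6 ± 1.4%.

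Families picked by gene symbol after the values were seen differed in how many genes passed 10% in both quantifications, beside 27.8% of all genes. Among mitochondrial ribosomal proteins 5 of 19 genes did, led by Mrpl32 at 72.4% and 70.4%. Among respiratory chain subunits 5 of 19 did, led by Ndufs4 at 72.1% and 81.9%. Of genes named Tmem, 14 of 35 (40%) passed, of those named Zfp 17 of 46 (37.0%), of solute carriers 13 of 54 (24.1%) and of proteasome subunits 2 of 10 (20%). Psma3, of a proteasome subunit, was at 20.6% and 81.5%. Of genes with tubulin, actin or Kif symbols 2 of 6 passed, with medians of 1.08% and 1.55%, and none of the 6 is a tubulin gene. Kif21b, of a neuronal kinesin motor, was at 49.1% and 56.7%. The other was Kif1bp at 11.8% and 15.9%, which was taken by its symbol and does not encode a kinesin. Whether any family differs from the rest was not tested.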
